A study of Mus musculus with 2 samples.

Results

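The nuclear-encoded genes of the mitochondrial respiratory chain were followed through the cells of mouse optic nerves that carry a glioma. Members were taken by symbol, as genes whose names start with Ndufa, Ndufb, Ndufc, Ndufs, Ndufv, Cox4 to Cox8, Uqcr or Atp5, together with Sdha, Sdhb, Sdhc and Sdhd. Names ending in -ps were left out, which removed 1 of 94 matching symbols. This gave 93 genes of the 32285 in the files. By role they were 7 core subunits, 29 accessory subunits and 8 assembly factors of complex I, 4 subunits of complex II, 8 of complex III, 20 of complex IV and 17 of complex V. In each library 92 of the 93 had at least 1 UMI (a unique molecular identifier, which counts 1 captured RNA molecule). The exception was Cox8c, a complex IV isoform known from testis, with 0 UMIs in both.

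The respiratory chain sits in the inner mitochondrial membrane. Complexes I and II pass electrons from NADH and succinate to ubiquinone, complex III hands them to cytochrome c, complex IV reduces oxygen with them, and complex V (ATP synthase) makes ATP from the proton gradient. Most subunits come from nuclear genes, but complexes I, III, IV and V also need subunits encoded in mitochondrial DNA, while complex II is wholly nuclear-encoded.

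Optic nerves came from Nf1-OPG mice (Nf1flox/neo; GFAP-Cre), in which a neomycin insertion inactivates 1 germline copy of Nf1 and Cre driven by the GFAP promoter removes the other in neuroglial progenitors, so cells outside that lineage keep 1 functional copy. Mice were 12 weeks old and had received an antibody against PD-1 (anti-PDCD1 in the labels) or against TIGIT, both inhibitory receptors of T cells. Nerves of 10 mice were pooled into 1 library per treatment, called the PD-1 library and the TIGIT library below. Live cells were sorted by exclusion of 7-AAD. The protocol also mentions meningeal dura, and the labels do not say whether dura entered these libraries. The share of cells with a UMI of Xist and no Y-linked UMI, called Xist-positive below, differed between the libraries in several types. Xist is expressed from the inactive X chromosome of females. Xist-positive cells made up 28.5% of PD-1 and 10.5% of TIGIT CD8 T cells, 19.6% and 5.74% of CD4 T cells, and 26.9% and 33.3% of microglia. Cells with Y-linked UMIs and none of Xist made up 22.6% and 34.7% of CD8 T cells, 28.0% and 40.2% of CD4 T cells, and 32.1% and 27.8% of microglia. No untreated library was analysed here, so the treatments are set against each other only. With 1 library per treatment there is no replicate and no test. All intervals below are exact 95% intervals that cover counting error only, not the spread between mice, dissociations or sequencing runs.

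The PD-1 library held 13997 barcodes with 85031565 UMIs and the TIGIT library 7915 barcodes with 40733655 UMIs. They shared 163 barcode sequences, which is 1.16% of the first and 2.06% of the second. After filtering, 13266 and 7499 cells remained, with median depths of 4456.5 and 4124 UMIs. Cells were gated into a type when at least 3 markers of that type had a UMI and no other type reached 3, which placed 9235 and 5431 cells. The oligodendrocyte gate was the largest, with 2633 and 2006 cells, and microglia, T cells, oligodendrocyte precursor cells (OPC) and fibroblasts were also present. Of all UMIs in retained cells, the members took 1587266 (2.003%) in the PD-1 library and 689699 (1.78%) in the TIGIT library.

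Cell types differed in the share of their RNA that came from respiratory chain genes. Of the 13 types with 50 or more cells in each library, fibroblasts stood highest in both, at 3.33% of UMIs (interval 3.30 to 3.35) in 356 anti-PD-1 cells and 2.96% (2.93 to 3.0025) in 152 anti-TIGIT cells. OPC, the dividing progenitors of oligodendrocytes, followed with 3.27% in 600 cells and 2.80% in 101 cells. On this scale of all UMIs, fibroblasts and OPC lay apart from every lymphocyte and myeloid type, of which none exceeded 2.42% in either library. Endocrine cells, with 26 and 54 cells, had 3.39% and 2.19% and were left out of the orders below.

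T cells and natural killer (NK) cells lay close together. CD8 T cells gave 2.42% in the PD-1 library and 2.08% in the TIGIT library, CD4 T cells 2.26% and 2.04%, regulatory T cells 2.24% and 1.99%, and NK cells 2.28% and 1.97%. In the TIGIT library the intervals of regulatory T cells (1.94 to 2.04%), NK cells (1.92 to 2.02%) and other T cells (1.96 to 2.01%) overlapped, so these neighbours were not separated beyond counting error. Oligodendrocytes, the myelinating cells, gave 2.10% and 2.05%, dendritic cells 1.99% and 1.60%, and B cells 1.90% and 1.73%. Border macrophages reached 1.57% and 1.38%, and microglia, the resident macrophages of nervous tissue, 1.48% and 1.16%. Fibroblasts thus exceeded microglia by a log2 ratio of 1.17 in the PD-1 library and 1.35 in the TIGIT library.

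Plasma cells, which secrete antibody, had the lowest shares, 0.871% and 0.769%. Immunoglobulin and T cell receptor genes took 67.6% and 69.8% of their UMIs. With those genes, ribosomal protein genes and other dominant classes left out of the total, which removed 74.3% and 75.6% of plasma cell UMIs, the members made up 3.39% and 3.16% of the rest. On that scale 3 types stood above plasma cells in the PD-1 library and 1 in the TIGIT library, while fibroblasts stayed first with 4.02% and 3.54% and microglia last with 1.76% and 1.33%. OPC had 3.71% and 3.07% there, close to CD8 T cells with 3.45% and 2.97%, and oligodendrocytes had 2.36% and 2.31%. The place of plasma cells in the order, and the distance of OPC from the lymphocytes, thus changed with the denominator. Shares are not amounts per cell, which also follow depth. Member UMIs per cell were 109.3 and 47.2 in microglia, 106.6 and 77.55 in CD8 T cells and 115.2 and 116.9 in plasma cells.

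**Figure D1:**
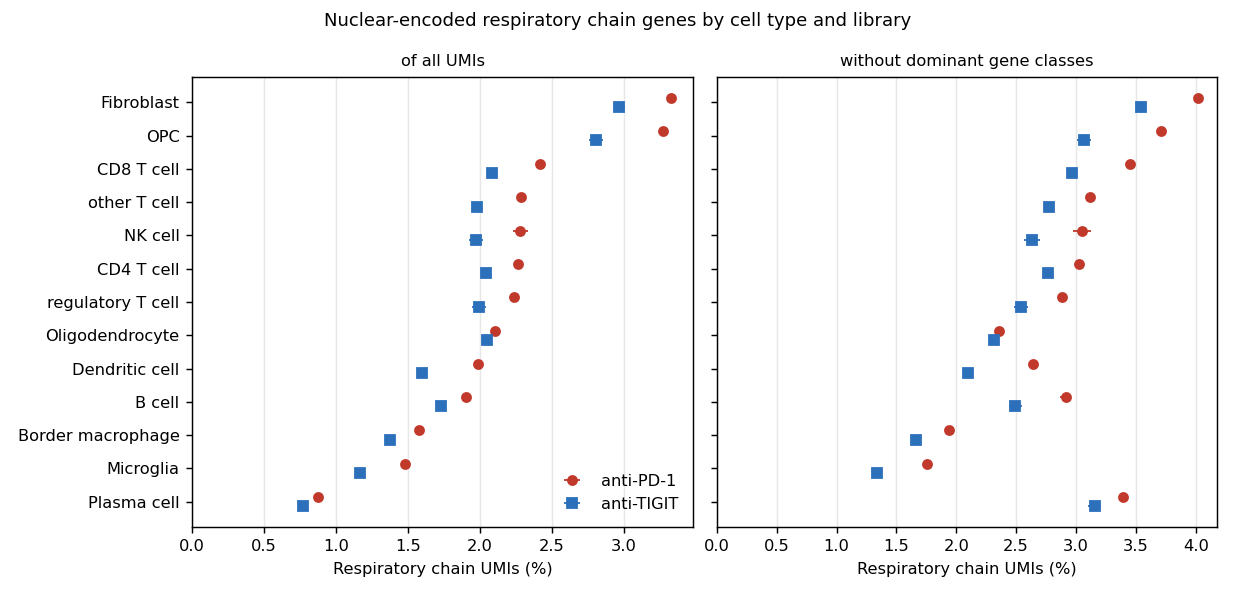
Percent of UMIs that belong to the 93 members, per gated cell type (rows) in the anti-PD-1 (red circles) and anti-TIGIT (blue squares) libraries, with exact 95% counting intervals as lines. The left panel uses all UMIs and the right panel leaves out dominant gene classes; fibroblasts are highest and microglia low in both panels, and plasma cells move from 0.871% and 0.769% to 3.39% and 3.16%.

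Member by member, the high totals of OPC and fibroblasts were spread over many genes. Each gene was set against its own median over 13 cell types on log2(CPM + 5), where CPM is counts per 1000000 UMIs of that type. In OPC, 55 of 89 measured members in the PD-1 library and 53 of 87 in the TIGIT library lay more than 1.5-fold above that median, where 37.1% and 40.5% of all genes did. Fibroblasts had 45 of 89 and 43 of 87 above it, with a background of 27.6% and 30.5%. Oligodendrocytes, with a similar background of 27.1% and 30.8%, had 10 and 20.

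Microglia showed the opposite side. There 38 of 89 and 44 of 87 members lay more than 1.5-fold below the median type, against 13.8% and 12.1% of all genes, and 1 member in each library lay above it, against 13.7% and 18.9%. Border macrophages had 32 of 89 and 29 of 87 below, where the background was 15.1% and 14%. Plasma cells had 78 members below in each library, and their background was 52.8% and 60.7%. The median member was 0.53 below the median type in anti-PD-1 microglia and 0.59 below it in anti-TIGIT microglia on the log2 scale. In border macrophages it was 0.47 and 0.44 below.

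Among complex I genes, the accessory subunits Ndufa5, Ndufb2 and Ndufb4 and the assembly factor Ndufaf2 stood out most in their highest type against the median type. Ndufa5 reached 348 CPM in OPC of the PD-1 library and 276 in those of the TIGIT library, while the median type had 134 and 98.7 and microglia had 76.8 and 59.9. Ndufb2 reached 333 and 256 CPM in OPC and 323 and 277 in fibroblasts, with the lowest values, 78.3 and 67.2, in microglia. Ndufb4 was scarcer, at 75.9 and 49.7 CPM in fibroblasts and 12.6 and 9.8 in microglia. Each of these subunits was highest in OPC or in fibroblasts in both libraries. Ndufaf2, which helps to build complex I, had another order: oligodendrocytes were highest at 84.7 and 84.6 CPM, OPC had 78.4 and 73.2, and CD8 T cells had 24.1 and 24.0.

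Complex I core subunits, which carry the flavin and iron-sulphur centres, took a larger part of the members' UMIs in oligodendrocytes than in other types with 50 or more cells per library. In oligodendrocytes they made up 4.97% (4.90 to 5.04) and 5.17% (5.09 to 5.25) of member UMIs. Lower shares were found in OPC, at 3.83% and 4.67%, in microglia, at 3.37% and 4.24%, and in CD8 T cells, at 2.998% and 3.23%. The OPC interval reached 5.07% in the TIGIT library, just under the oligodendrocyte interval there. The complex IV share varied little, from 24.8% in plasma cells to 29.9% in microglia of the PD-1 library and from 24.98% to 29.2% over the types of the TIGIT library.

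Complex II, succinate dehydrogenase, couples the chain to the citric acid cycle. Sdha, its flavoprotein, was highest in oligodendrocytes, with 149 CPM in the PD-1 library and 168 in the TIGIT library, against a median type of 108 and 107 CPM. The iron-sulphur subunit Sdhb peaked in OPC, at 245 and 242 CPM, as did the membrane anchor Sdhc, at 110 and 125 CPM. Sdhd, the other membrane anchor, was highest in fibroblasts, with 108 and 102 CPM. All 4 had their lowest CPM in plasma cells in both libraries. CPM is taken over all UMIs, of which immunoglobulin and T cell receptor genes took 67.6% and 69.8% in plasma cells.

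In complex III, the small subunit Uqcr11 was higher in fibroblasts, OPC and oligodendrocytes than in CD8 T cells and microglia. It reached 670 and 520 CPM in fibroblasts, 535 and 459 in OPC and 303 and 279 in oligodendrocytes, while CD8 T cells held 204 and 164 and microglia 175 and 140. Ndufa4, first assigned to complex I and now counted with complex IV, was also high in OPC, with 1068 and 923 CPM, and in fibroblasts, with 1020 and 978. Its median type had 434 and 402 CPM. Microglia had 236 and 189, but NK cells had 540 and 437. At the other end, the members that differed least between their highest and their median type, leaving aside the nearly absent Cox8c and Cox7b2, were Atp5e, the epsilon subunit of ATP synthase, and the complex I accessory subunit Ndufa6. Atp5e reached 1088 CPM in anti-PD-1 CD8 T cells, where the median type had 937, and 874 CPM in anti-TIGIT fibroblasts, where the median type had 743. Ndufa6 peaked at 530 and 459 CPM, with median types at 428 and 376.

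Several complex IV subunits exist as a widely expressed form and a tissue-restricted one, and 2 restricted forms stood out here. Cox6b2, known as the testis form of subunit 6b, had the strongest cell type pattern of all members. Fibroblasts held 176 CPM (449 UMIs) in the PD-1 library and 250 CPM (196 UMIs) in the TIGIT library. OPC followed far behind, with 19.1 and 26.9 CPM, and no other type of 50 or more cells per library exceeded 11.5 CPM. Together with the widely expressed Cox6b1, Cox6b2 gave 21.2% (19.5 to 23.0) of the pair's UMIs in anti-PD-1 fibroblasts and 31.7% (28.0 to 35.5) in anti-TIGIT fibroblasts. In CD8 T cells it gave 0.529% and 0.423%.

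Cox6b2 was seen in many fibroblasts rather than in a few. At least 1 UMI was found in 200 of 356 cells (56.2%, interval 50.9 to 61.4) and in 80 of 152 (52.6%, 44.4 to 60.8), at median depths of 6759 and 4411.5 UMIs. CD8 T cells, which served as the background, had it in 0.985% and 0.675% of cells at median depths of 3803.5 and 3115. With every cell thinned to 1000 UMIs, 15.0% of 354 and 23.6% of 148 fibroblasts still had it, after 2 and 4 shallower cells were left out, and CD8 T cells 0.284% and 0.509%. The gene lies at chr7:4751792-4753094 on the minus strand, and Cox6b1 at chr7:30616861-30626151, also on the minus strand (mm10).

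Cox6a2, the heart and skeletal muscle form of subunit 6a, marked a part of the microglia. Microglia of the PD-1 library held 60.4 CPM (569 UMIs) and those of the TIGIT library 25.1 CPM (41 UMIs). It gave 23.1% (21.4 to 24.8) and 10.9% (8.0 to 14.5) of the UMIs of the pair with Cox6a1. Border macrophages, the other macrophage type, had 1.2 and 1.0 CPM. A UMI was found in 273 of 1276 microglia (21.4%) and in 19 of 403 (4.71%), at median depths of 6716.5 and 3851 UMIs. After thinning to 1000 UMIs the shares were 4.75% (3.64 to 6.09) and 1.56% (0.576 to 3.37), with 35 and 19 shallower cells left out. CD8 T cells gave 0.0709% and 0% then, the latter a count of 0 in 589 cells with an upper limit of 0.624%. In the TIGIT library that limit overlapped the interval of microglia. Dendritic cells gave 2.23% and 2.40% after thinning, and NK cells 0% of 76 and 2.04% of 98 cells.

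A few cells held many of these UMIs. In the anti-PD-1 microglia 20 cells with 5 or more Cox6a2 UMIs carried 28.5% of the total, and in the anti-TIGIT microglia 1 cell carried 41.5%. That 1 cell, and 1 of the 20, also had at least 2 of Ccr9, Klk1, Ly6d and Pacsin1, genes known from plasmacytoid dendritic cells that were picked after these values were seen. Without them the levels were 44.4 and 14.7 CPM and the shares of the pair 18.3% and 6.76%, so the anti-PD-1 value stayed above the anti-TIGIT value. Dendritic cells had 37.0 and 33.9 CPM, of which 89.5% and 90.6% came from 12 and 6 cells. Of those cells 11 and all 6 had at least 2 of the same 4 genes. The same held for 4.36% and 1.70% of the other dendritic cells. NK cells went the other way, with 7.0 CPM (2 UMIs) and 40.7 CPM (12 UMIs), a log2 ratio of -2.55 (-5.75 to -0.38) on few molecules.

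Cox6a2 lies at chr7:128205435-128206387 on the minus strand (mm10), wholly inside Itgad, an integrin gene on the other strand. Whether the counting used strand is not given in the sources used here. Itgad was nearly absent from the microglia, with 7 and 3 UMIs, and 4 and 1 cells held both genes. Its highest counts were in oligodendrocytes, 365 and 227 UMIs, where Cox6a2 had 25 and 1. In all, 29 members overlap another annotated gene, 1 of them (Ndufa13, with Yjefn3) on the same strand.

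**Figure D2:**
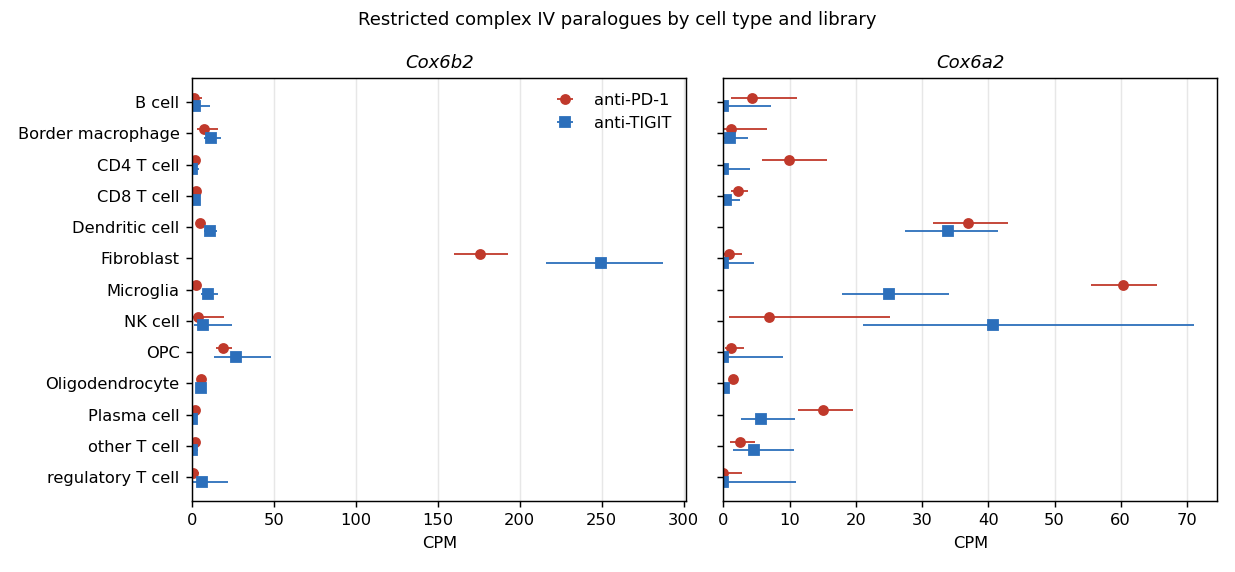
Level of Cox6b2 (left) and Cox6a2 (right) in CPM per gated cell type and library (anti-PD-1 red circles, anti-TIGIT blue squares), with exact 95% counting intervals. Cox6b2 is at 176 and 250 CPM in fibroblasts and near 0 in most other types. Cox6a2 is at 60.4 and 25.1 CPM in microglia, at 37.0 and 33.9 CPM in dendritic cells and at 7.0 and 40.7 CPM in NK cells.

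The sequences just upstream of the restricted Cox6b2 and of the widely expressed Cox6b1 and Cox6a1 are shown because these pairs carry the cell type pattern. They are the RefSeq 250 bases before the gene start (GRCm38.p6), read on the gene's minus strand, without the bases that the GENCODE annotation places inside the gene. They span chr7:4753095-4753344 for Cox6b2, chr7:30626152-30626364 for Cox6b1 and chr5:115348982-115349208 for Cox6a1. Capitals mark TGCGCA, the palindromic core of the motif bound by NRF1, a regulator of respiratory chain genes. RefSeq's table held no entry for Cox6a2.
Cox6b2: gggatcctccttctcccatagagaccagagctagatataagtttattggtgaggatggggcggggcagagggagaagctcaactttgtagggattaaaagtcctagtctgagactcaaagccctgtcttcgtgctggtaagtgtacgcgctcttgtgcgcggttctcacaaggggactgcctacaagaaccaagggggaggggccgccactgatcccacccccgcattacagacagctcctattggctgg
Cox6b1: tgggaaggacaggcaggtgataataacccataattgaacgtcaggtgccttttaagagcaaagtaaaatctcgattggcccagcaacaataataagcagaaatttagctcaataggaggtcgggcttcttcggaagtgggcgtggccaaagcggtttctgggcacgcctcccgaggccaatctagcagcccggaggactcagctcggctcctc
Cox6a1: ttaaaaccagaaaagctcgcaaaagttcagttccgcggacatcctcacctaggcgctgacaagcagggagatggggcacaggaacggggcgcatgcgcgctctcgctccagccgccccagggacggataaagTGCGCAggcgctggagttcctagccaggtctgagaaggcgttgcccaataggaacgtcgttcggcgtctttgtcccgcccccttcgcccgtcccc

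The core occurs in the Cox6a1 window and not in the other two shown. Over the 76 members found in the RefSeq table, with 300 bases per gene (250 before the start and 50 after), TGCGCA was present in 19 (25%), and in 8.06% of all 27025 promoters of that length. On either strand, the ETS motif CCGGAAGT was found in 6.58% of members and 4% of all promoters, the YY1 core AAGATGG in 14.5% and 6.48% (in 0% and 4.53% of the 250 bases before the start alone), and the cyclic AMP response element TGACGTCA in 5.26% and 1.88%. Each motif was searched alone, so matches to different motifs may overlap. A match is a letter pattern and was not tested for binding.

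The other restricted forms were scarce. Over all retained cells Cox4i2 had 122 and 31 UMIs, Cox7a1 146 and 45, Cox8b 13 and 13, Cox7b2 20 and 5, and Ndufa4l2 22 and 17. Each made up at most 0.516% of its pair with Cox4i1, Cox7a2, Cox8a, Cox7b or Ndufa4. Cox4i2 reached its highest share, 1.62% (0.966 to 2.56), in anti-PD-1 plasma cells, with 18 UMIs.

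Atp5g1, Atp5g2 and Atp5g3 encode the same mature c subunit, which forms the rotor ring of ATP synthase, and their mixture differed between types. Atp5g1 gave 24.6% (22.7 to 26.6) and 27.0% (24.1 to 30.0) of the 3 genes' UMIs in plasma cells and 19.6% and 19.7% in oligodendrocytes, while the other types of 50 or more cells per library lay between 12.2% and 17.3%. Atp5g2 took 54.9% and 49.9% in microglia but 34.96% and 35.1% in fibroblasts. Atp5g3 was the opposite, with 49.2% and 51.2% in fibroblasts and 31.1% and 33.8% in microglia.

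Between the treatments, the summed level of the members was higher in the PD-1 library in each of the 11 types with 100 or more cells per library. The log2 ratio (anti-PD-1 over anti-TIGIT throughout) was largest in microglia, 0.35 (0.33 to 0.37), followed by dendritic cells with 0.31 (0.30 to 0.33). OPC gave 0.22, CD8 T cells 0.22, other T cells 0.21, border macrophages 0.19, plasma cells 0.18, fibroblasts 0.17, CD4 T cells 0.15 and B cells 0.14. Oligodendrocytes gave 0.04 (0.03 to 0.04), and 0.13 (0.11 to 0.14) with every cell thinned to 1000 UMIs. All 11 intervals lay above 0, and they cover counting error only. With members of at least 700 nucleotides only, 8 did, and the exceptions were B cells with 0.02 (-0.04 to 0.08), CD4 T cells with 0.0374 (-4.752e-05 to 0.07) and oligodendrocytes with -0.0356. In Xist-positive cells dendritic cells, with 0.46 (0.41 to 0.50), stood above microglia, with 0.28 (0.24 to 0.31), so the order of these types depends on the cells taken. In cells with Y-linked UMIs microglia gave 0.38 (0.34 to 0.42) and dendritic cells 0.27 (0.24 to 0.29). Intervals lay above 0 in 11 of 11 types in those cells and in 8 of 8 types in Xist-positive cells. A difference between the libraries in handling cannot be told apart from the treatment, and the part of the sex of the cells was not tested. Immunoglobulin and T cell receptor genes took 0.449% of oligodendrocyte UMIs in the PD-1 library and 0.0646% in the TIGIT library. Border macrophages had 0.573% and 0.123%, and microglia 0.138% and 0.111%. Counts were not corrected for RNA from outside the cells, and the part of such RNA was not tested.

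Members and all measured genes were also compared by their medians on log2(CPM + 5). The median member was higher than the median gene in every one of these types. In microglia it stood at 0.24 and all genes at -0.20, in OPC at 0.17 and -0.12, in B cells at 0.10 and -0.09, and in dendritic cells at 0.22 and -0.01. In CD4 T cells the values were 0.14 and 0.03 and in oligodendrocytes 0.02 and -0.02. The gene-wide medians of microglia and OPC are more than 0.1 below 0, so relative to them the members there stand higher than the CPM ratios show.

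Single members rarely passed 1.5-fold. Of 913 pairs of a member and a type with at least 50 UMIs, 34 (3.72%) were past 1.5-fold higher in the PD-1 library and 4 (0.438%) past it lower, where 5.84% and 6.62% of all gene and type pairs were. The share of higher calls was thus under the background. It was near the background in Xist-positive cells, at 11.1% of members and 10.5% of all genes, and after thinning to 1000 UMIs, at 9.51% and 9.07%. The background holds all genes with at least 50 UMIs in a type and was not matched to the expression of the members. Microglia had 7 of 86 measured members past 1.5-fold higher, with a background of 4.46%, and 0 lower, with a background of 13.1%. Dendritic cells had 6 of 86 higher (background 4.84%) and 1 lower (6.37%).

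Fewer were called in the other types. Plasma cells had 4 of 81 higher (background 7.39%) and 0 lower (4.12%), and B cells 3 of 76 higher (6.27%) and 1 lower (12.5%). Counts higher were 3 of 77 in border macrophages (background 3.08%), 3 of 85 in CD8 T cells (5.55%) and 3 of 83 in other T cells (8.23%), with 0 lower in each (6.97%, 3.82% and 3.69%). Fibroblasts had 2 of 85 higher (5.27%) and 1 lower (6.59%), and OPC 2 of 86 higher (8.96%) and 1 lower (14.1%). CD4 T cells had 1 of 82 higher (6.40%) and 0 lower (3.33%), and oligodendrocytes 0 of 86 in both directions (4.69% and 0.571%).

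**Figure D3:**
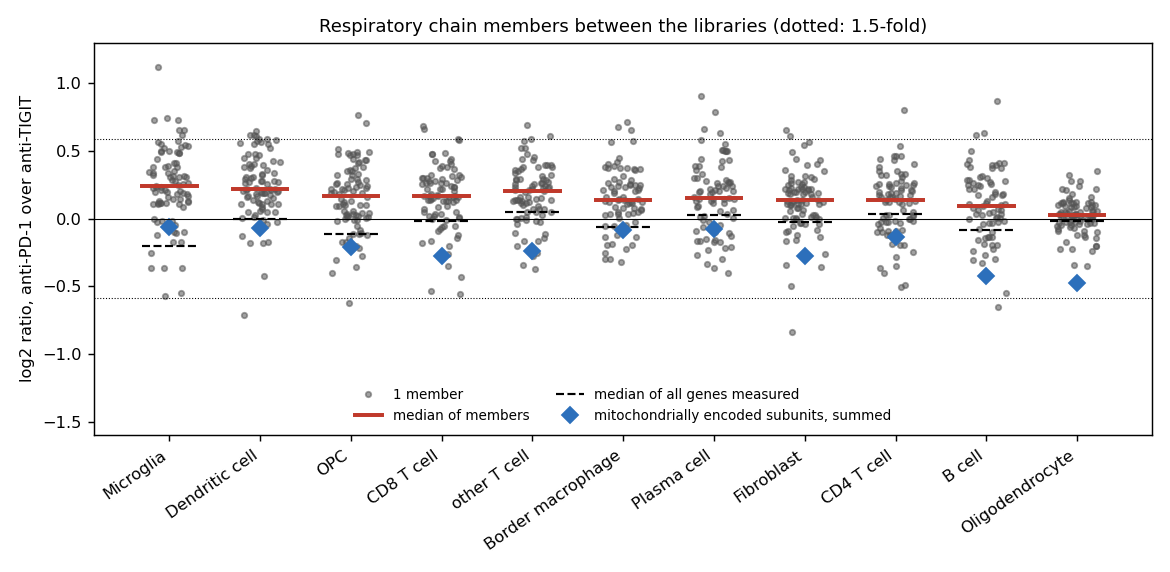
Log2 ratio of (CPM + 5), with anti-PD-1 over anti-TIGIT, of each measured member (grey points) in 11 gated cell types; red bars are the members' median, dashed bars the median of all measured genes, and blue diamonds the log2 ratio of the summed mitochondrially encoded subunits. Dotted lines mark 1.5-fold; the red bar is above the dashed bar in every type, and the blue diamonds run from -0.06 in microglia to -0.48 in oligodendrocytes.

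Cox7c and Atp5k led the members that were higher in the PD-1 library. Cox7c, a small nuclear subunit of complex IV, was higher in 11 of 11 types and past 1.5-fold in 4. In CD8 T cells it had 786 CPM in the PD-1 library and 495 in the TIGIT library, a log2 ratio of 0.67 (0.57 to 0.76). OPC had 1013 and 618 CPM (0.71, 0.53 to 0.90), dendritic cells 646 and 419 (0.63, 0.53 to 0.72), and fibroblasts 816 and 531 (0.62, 0.47 to 0.77). Atp5k, the membrane subunit e of ATP synthase, was higher in 11 of 11 types and past 1.5-fold in 5. Its CPM were 171 and 104 in CD8 T cells, 102 and 59.9 in border macrophages, 128 and 81.5 in B cells, 62.6 and 34.2 in plasma cells, and 160 and 105 in other T cells. The gap was smallest in oligodendrocytes for both genes, 614 and 505 CPM for Cox7c and 155 and 123 for Atp5k.

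Cox6a2 in microglia had the largest difference of any member on log2(CPM + 5), 1.12. Its CPM ratio there was 2.41, a log2 ratio of 1.27 (0.81 to 1.76), and the log2 ratio was 1.595 (1.001 to 2.25) without the cells that held 5 or more of its UMIs. Atp5e had 516 and 306 CPM (0.76, 0.62 to 0.89), and Cox8a, the widely expressed form of a small complex IV subunit, 883 and 530 (0.74, 0.63 to 0.84). In plasma cells Cox6a2 was at 15.0 and 5.7 CPM, on 53 and 9 UMIs, and Ndufa5 at 56.0 and 33.5 CPM.

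Other named genes passed 1.5-fold in 1 or 2 types. The accessory subunit Ndufc1 had 160 and 85.4 CPM in B cells and 172 and 113 in CD8 T cells, and Ndufa1 had 189 and 120 in B cells. In border macrophages the accessory subunit Ndufa3 had 221 and 136 CPM, and the small complex III subunit Uqcr10 had 217 and 136. Atp5mpl, a small proteolipid of ATP synthase, had 306 and 193 CPM in dendritic cells, and the complex IV subunit Cox6c 569 and 369. Among scarce genes the assembly factor Ndufaf2 had 48.9 and 29.3 CPM in fibroblasts and 29.7 and 16.5 in other T cells, where Ndufaf3 had 47.4 and 29.4. Ndufaf4 had 57.5 and 31.7 CPM in OPC, and Ndufb4 had 24.3 and 11.8 in CD4 T cells.

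Of the 4 pairs lower in the PD-1 library, 2 had an interval that held 0. Ndufa9, a complex I accessory subunit, had 30.3 and 50.5 CPM in B cells (log2 ratio -0.74, -1.56 to 0.09), and the assembly factor Ndufaf1 had 17.3 and 29.3 in OPC (-0.76, -1.67 to 0.27). The others were Cox6b2 in dendritic cells, with 4.5 and 10.6 CPM on 21 and 30 UMIs (-1.22, -2.10 to -0.37), and Ndufaf7, a methyltransferase that acts on complex I, with 27.0 and 52.3 CPM in fibroblasts (-0.95, -1.53 to -0.36).

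The complexes did not shift alike. Complex III, IV and V and the accessory subunits of complex I each had a summed interval above 0 in 11 of 11 types. Complex IV ranged from 0.04 in oligodendrocytes to 0.46 (0.41 to 0.50) in microglia, and complex V from 0.06 to 0.39 in the same types. Complex I core subunits lay above 0 in 2 types, dendritic cells with 0.14 and CD8 T cells with 0.11, and below 0 in B cells with -0.21, while 8 intervals held 0. Complex II lay above 0 in none, and below 0 in oligodendrocytes with -0.12 (-0.17 to -0.07), while 10 intervals held 0. Complex I assembly factors, which are scarce, lay above 0 in 3 types and ranged from -0.22 in CD4 T cells to 0.40 in other T cells. Differences between complexes were not tested.

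**Figure D4:**
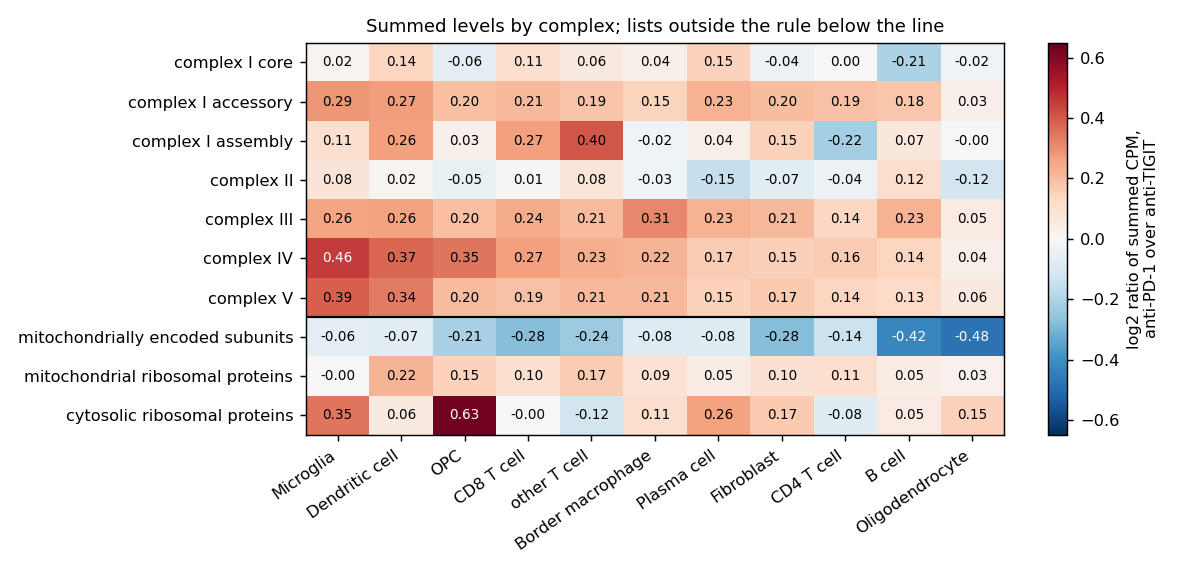
Log2 ratio of summed CPM, anti-PD-1 over anti-TIGIT, for each complex (rows) in 11 gated cell types (columns), with red for higher and blue for lower in anti-PD-1; 3 lists that are not members stand under the black line. Complexes III, IV and V are above 0 throughout, and the mitochondrially encoded subunits are below 0 throughout. Complex I core runs from -0.21 to 0.15 and complex II from -0.15 to 0.12.

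Subunits encoded in mitochondrial DNA went the other way. Summed over 13 genes they were lower in the PD-1 library in 11 of 11 types, from -0.06 (-0.08 to -0.04) in microglia to -0.48 (-0.49 to -0.47) in oligodendrocytes. The genes were uneven. mt-Nd1, a complex I subunit, was lower in 11 of 11 types and past 1.5-fold in 10, with a median log2 ratio of -0.73. mt-Co3, of complex IV, was past 1.5-fold lower in 5 types and had a median of -0.56, while mt-Co1, of the same complex, had a median of 0.08 and mt-Nd3 of 0.28. In oligodendrocytes the members gave 1.21 UMIs per mitochondrially encoded UMI in the PD-1 library and 0.848 in the TIGIT library. In microglia this ratio was 1.15 and 0.862, and in CD8 T cells 1.66 and 1.18. It was higher in the PD-1 library in all 13 types with 50 or more cells in each. Median depths were 6194 and 6192 UMIs in oligodendrocytes and 6716.5 and 3851 in microglia. Malat1, a nuclear-retained RNA, had log2 ratios from -0.33 in OPC to 0.39 in dendritic cells. The part of depth and RNA quality in these ratios was not tested.

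Transcript length ran with the size of the difference. Of the 76 members measured in all 11 types, 25 were higher in the PD-1 library in every type and 0 lower in every type. The same count was not made over all genes, and the types come from the same 2 libraries, so these counts have no background. Cox6b2, measured in 4 types, was higher in 0 of them. Among the 76, the median over types was 0.29 for the 35 with transcripts under 700 nucleotides (median over the gene's annotated transcripts) and 0.04 for the 41 longer ones. Which annotated transcripts these cells used was not examined, so the length class of a gene is uncertain. Across these 76 genes, Spearman's rho between length and the median log2 ratio was -0.72 and Pearson's r with log length was -0.67. They share libraries and cells and are not independent, so the coefficients are descriptive. Highest were Cox7c (0.54, 540 nucleotides), Atp5k (0.52, 321.5 nucleotides), Atp5md (0.48, 362 nucleotides) and Ndufa3 (0.47, 433 nucleotides). Lowest were Cox7a2l (-0.37, 1102.5 nucleotides), which helps to join complexes III and IV, Ndufa9 (-0.28) and Uqcrc2 (-0.22), a large matrix subunit of complex III. Cox7a2l had 231 and 337 CPM in CD8 T cells (-0.55, -0.68 to -0.42) and 260 and 350 in dendritic cells (-0.43, -0.55 to -0.31), and was higher in the PD-1 library in 2 of 11 types.

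Complexes differ in length too: the median member transcript was 519.5 nucleotides in complex III and 588.5 in complex IV, but 1312 among complex I core subunits and 1612 in complex II. Genes outside the respiratory chain showed the same direction. In microglia other genes under 700 nucleotides had a median log2 ratio of 0.08 and longer ones -0.21, while members had 0.38 and 0.13. In CD8 T cells other genes had 0.16 and -0.03 and members 0.29 and 0.09, and in oligodendrocytes 0.06 and -0.02 against 0.10 and -0.01. The part of transcript length in the difference between the libraries was not tested.

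**Figure D5:**
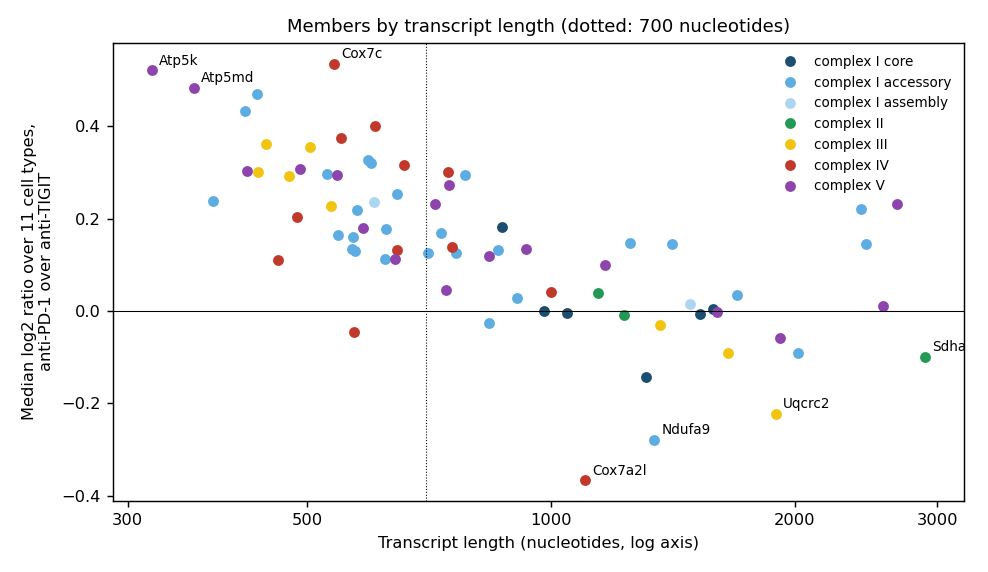
Median log2 ratio of (CPM + 5), anti-PD-1 over anti-TIGIT, over 11 cell types for the 76 members measured in all of them (y axis) against transcript length in nucleotides (x axis, log scale), coloured by complex. Short transcripts such as Cox7c, Atp5k and Atp5md lie near 0.5, and most members right of the dotted line at 700 nucleotides lie between -0.4 and 0.3.

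Lists next to the members gave smaller or mixed ratios. The 78 mitochondrial ribosomal protein genes, which serve the synthesis of the mitochondrially encoded subunits, had a summed interval above 0 in 8 of 11 types and below 0 in none, with 0.22 in dendritic cells as the highest value. Of their 779 pairs with a type, 20 were past 1.5-fold higher and 6 lower, where 5.84% and 6.62% of all gene and type pairs were. The 31 assembly and copper delivery factors also lay above 0 in 8 types and below 0 in none. Of their pairs 11 of 245 were higher and 2 lower, against the same background. The 13 enzymes of the citric acid cycle lay above 0 in 0 types and below 0 in 2, microglia with -0.16 and oligodendrocytes with -0.05. Cytochrome c (Cycs) and Cyc1, a complex III subunit outside the naming rule, were together above 0 in 4 types, with 0.49 in dendritic cells. The 10 regulators of mitochondrial biogenesis, Ppargc1a and Tfam among them, were above 0 in 0 types and below 0 in 4. The 101 cytosolic ribosomal protein genes ran from -0.12 in other T cells to 0.63 in OPC, with 8 types above 0 and 3 below.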

How the data were processed

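UMI counts were deposited for every gene in every barcode, and Cell Ranger 8.0.0 (anti-PD-1) and 8.0.1 (anti-TIGIT) made them, per the file headers. The libraries were 10x Genomics 5′ libraries per the labels, and the submitters' processing notes give the build as mm10. Seurat 5.0.3 and R 4.1.1 also stand in the notes, and nothing made with them was used here. A 5′ UMI marks 1 molecule whatever its length, so levels were not divided by length. How reads shared with pseudogene copies or overlapping genes were counted is not given in the sources used here, and members with such copies are uncertain.

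Barcodes under 200 genes or over 10% mitochondrial UMIs were dropped, and Scrublet (scanpy 1.11.5) removed 586 and 154 doublets (4.21% and 1.99%). Cells were gated by 3 markers, and T cells divided by Cd8a or Cd8b1, Cd4 and Foxp3. Gates left 2891 and 1571 cells unplaced and 1140 and 497 with several types. UMIs were summed per type and library. Ratios have exact conditional binomial intervals, shares Clopper-Pearson and levels Poisson intervals, all at 95% and for counting error only. Calls needed 50 UMIs over both libraries and a 1.5-fold ratio of (CPM + 5). A type was compared with 100 cells per library. Genes were named by rule: the largest and smallest spread between types, up to 3 per direction and type, complex II, and the paralogues. Genes named for length or mitochondrial origin were chosen after their values were seen. The members and lists were chosen with earlier results of these data known. The calculations were tested on simulated data. Python 3.11.15, numpy 2.4.6, scipy 1.17.1 and pandas 2.3.3 were used.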

Additional observations from a re-analysis of the deposited data

How the results depend on the processing

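Summed ratios between treatments were above 0 under all alternatives but 2. With 2 markers per gate plasma cells gave -0.0428 (-0.12 to 0.03), and with members of at least 700 nucleotides only, added after the data were seen, oligodendrocytes gave -0.0356 (-0.05 to -0.03). Long members alone also took B cells and CD4 T cells to intervals that held 0, and border macrophages from 0.19 to 0.06. Over the alternatives microglia ranged from 0.19 to 0.55, dendritic cells from 0.21 to 0.46, B cells from 0.02 to 0.27 (0.06 with 4 markers), plasma cells from -0.04 to 0.31, oligodendrocytes from -0.04 to 0.13, OPC from 0.12 to 0.34, border macrophages from 0.06 to 0.26, CD8 T cells from 0.09 to 0.28, CD4 T cells from 0.04 to 0.16, fibroblasts from 0.07 to 0.21 and other T cells from 0.11 to 0.24. Xist-positive cells alone gave 0.11 in border macrophages and 0.14 in OPC. Dendritic cells exceeded microglia in Xist-positive cells (0.46 and 0.28) and with long members (0.21 and 0.19).

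Calls depended on the settings. Against 34 higher and 4 lower of 913 pairs, Xist-positive cells gave 70 and 8 of 631 (8 types, since B cells, CD4 T cells and plasma cells had under 20 such cells in the TIGIT library). For higher calls that is 11.1% of members and 10.5% of all genes. Cells with Y-linked UMIs gave 67 and 10 of 857 (7.82% and 8.22% higher), cells thinned to 1000 UMIs 70 and 8 of 736 (9.51% and 9.07%), scaling by the median ratio 61 and 2 of 913 (6.68% and 6.70%), and a pseudocount of 20 CPM 18 and 1 of 913 (1.97% and 2.91%). A 2-fold limit gave 1 and 0 of 913 (0.11% and 2.04%), and long members 7 higher of 512 (1.37% and 5.84%). Lower pairs were 11 of 872 with 2 markers (1.26%, all genes 6.77%), 7 of 913 with a pseudocount of 1 CPM (0.767% and 9.01%), 11 of 957 at 10 UMIs or more (1.15% and 7.81%) and 0 of 807 at 200 or more, where 4.91% of all genes were lower. In each of the settings named here the members' share of lower calls was under that of all genes, which were not matched to the members' expression. The log2 ratio of fibroblasts over microglia was 1.14 with 4 markers, 1.19 without dominant classes, 1.28 in Xist-positive cells and 1.195 in cells with Y-linked UMIs in the anti-PD-1 library, and 1.41, 1.39 and 1.41 under the last 3 in the anti-TIGIT library. Cox6a2 gave 7.35% of its pair in anti-TIGIT microglia with 4 markers, and 18.3% and 6.76% without cells holding 5 or more of its UMIs, also added after the data were seen. The cause was not tested. No paired analysis was possible because each treatment has 1 library, and no library could be left out.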
